A study of Arabis alpina with 18 samples.

Results

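The mutants pep1-1 and eop055 of Arabis alpina, a perennial crucifer, were compared in leaf and in shoot apex at 5 weeks, and the difference between these effects is described here gene by gene. For each gene the genotype effect was the log2 ratio of eop055 to pep1-1. The interaction was the effect in leaf minus the effect in apex, so an interaction of 1 means that the ratio was 2-fold larger in leaf. It was measured in 12 of the 18 libraries of the study, in 4 groups of 3: dissected apices of pep1-1, dissected apices of eop055, and leaves 5 and 6 of each mutant. All plants were of the accession Pajares and grew in long days. The other 6 libraries were apices of both mutants at 3 weeks. The sources used here give neither the lesion of eop055 nor whether that line also carries pep1-1, and no wild type entered the comparison. Neither PEP1 nor TOE2 was among the gene names used here, so the genotypes were not checked on a targeted gene.

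PEP1 corresponds to FLC, a floral repressor of Arabidopsis, and TOE2, which the title of the series names, belongs to the AP2-like floral repressors. In Arabidopsis, leaves sense day length and send a florigen signal to the apex. There SPL and MADS-box factors convert the shoot meristem to making flowers, while leaves and apex each run their own hormone, defence and sugar programmes. Roles given below are those of the Arabidopsis genes whose names the authors paired with the A. alpina genes.

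Gene counts came to between 7987096 and 13916620 per library. Levels are CPM, counts scaled by library size and TMM factor, given for replicates 1, 2 and 3 in that order. Whether replicates were separate plants is not in the labels, so p-values reflect only how these libraries scattered, which may be technical. The eop055 leaf libraries stood apart from each other: the chi-square per gene between them was 8.71, 13.3 and 24.7, against 1.50 to 5.77 for pairs in the other groups. Without eop055 leaf replicate 3 the interaction was called for 4289 genes, and without replicate 2 for 2762, against 3281 with all libraries. Of the marker lists for photosynthesis, cell division, stomata, trichomes and phloem, 0 members carried a name. The 2 named shoot meristem genes, ZPR2 and FAF2, stood at 40.6 and 5.598 CPM in pep1-1 apices and at 0.0651 and 0.457 CPM in pep1-1 leaves.

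The genotype effect differed between leaf and apex for 3281 of 21086 genes tested, 15.6%, at a Benjamini-Hochberg adjusted p under 0.05 in the quasi-likelihood F test of edgeR. The interaction was above 0 for 1970 of them (9.34%) and below 0 for 1311 (6.22%), and 1314 differed by at least 2-fold. Its median over all genes tested was -0.01. Scaling by the upper quartile moved that median to -0.13 and gave 1494 calls above 0 and 2466 below, so 37.7% of the calls were above 0 instead of 60%. The sign split over all genes thus depended on the scaling. None of the 68 genes selected by the rule for named genes changed sign under any scaling.

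The pattern with the most called genes was a genotype effect called in leaf alone. Of the 3281, 1845 (56.2%) were called for the genotype effect in leaf and not in apex, 1118 of them higher and 727 lower in eop055. A missing call does not show that the apex was unchanged. The apex estimate was below 0 for 870 of the 1118 and above 0 for 570 of the 727. A further 768 (23.4%) were called in apex alone, 468 lower and 300 higher in eop055 apices. For 306 (9.33%) both effects were called with opposite signs, and for 45 (1.37%) both had 1 sign and unequal size. The remaining 317 were called in neither tissue, and in all of these the estimates had opposite signs. Of the 1314 called genes with an interaction of at least 2-fold, 531 were in leaf alone when the leaf and apex effects also had to reach 2-fold. That count is not on the same footing as the 56.2%. Without eop055 leaf replicate 2, leaf alone held 1326 of 2762 called genes. Most called genes, 93.4%, were present at 1 CPM or more in both tissues of pep1-1, against 82.1% of genes tested. In tissue libraries such as these, fewer cells of a type and less RNA per cell cannot be told apart.

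**Figure D1:**
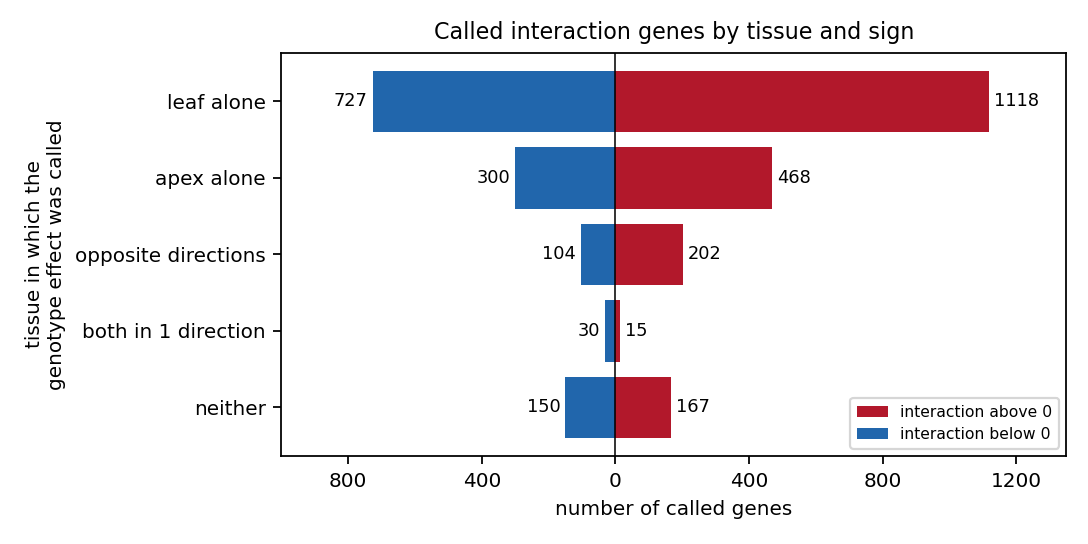
Number of called interaction genes (x axis) by the tissue in which the genotype effect was itself called (y axis), with interactions above 0 to the right and below 0 to the left. The longest bars are the 1118 and 727 genes called in leaf alone.

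**Figure D2:**
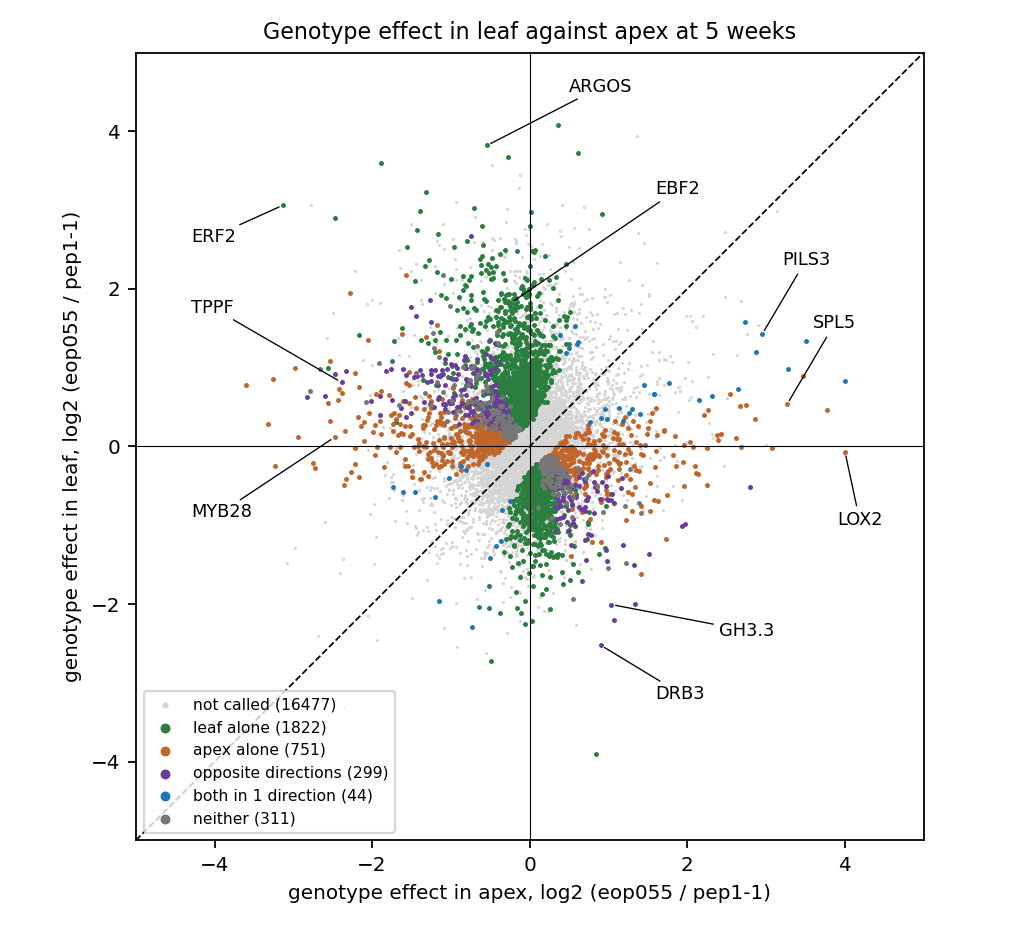
Genotype effect in apex (x axis) and in leaf (y axis), both log2 of eop055 over pep1-1, for genes with more than 3 counts in each of the 4 groups (1382 genes with fewer are left out). Points on the dashed diagonal have an equal effect in both tissues. Called genes lie off it, along the vertical axis for leaf alone and along the horizontal axis for apex alone.

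In the genes called higher in leaf alone, the eop055 leaf libraries were ordered. Replicate 3 was the lowest of the eop055 leaf libraries for 834 of the 1118 genes (74.6%), against 33.3% of all genes tested, and replicate 2 the highest for 59.3%, against 33.2%. For the 727 genes called lower in leaf alone, replicate 3 was the highest for 49%, against 34.1% of all genes tested. The part of these library differences in the results was not tested. Without eop055 leaf replicate 3, 2490 genes were called in leaf alone.

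Names were available only for genes in the authors' deposited lists of changed genes, and 1370 named genes were tested. The interaction was called for 674 of these (49.2%), above 0 for 36.6% and below 0 for 12.6%. Its median over the 1370 was 1.23, so most named genes had an interaction above 0, whether called or not. These values are the background for the counts of list members below. The leaf effect was called for 22.9% of all genes tested (13.6% higher in eop055, 9.29% lower) and the apex effect for 11.4% (5.18% higher, 6.23% lower). Among named genes these shares were 69.4% in leaf (59.9% higher, 9.49% lower) and 34.8% in apex (19.2% higher, 15.6% lower). The members had been chosen by the authors on these same libraries, so a count is not independent evidence of a direction. List members without a name could not be followed, so a count does not stand for a whole pathway. Of 115 tested members of 18 pathway lists, 46 were called, 34 above 0 and 12 below, a smaller share than the 49.2% of all named genes. The 5 marker lists added 2 tested members, of which 0 were called.

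Ethylene response genes were among the largest differences. All 10 tested members of the ethylene list had an interaction above 0 (median 4.35, also over the 8 members with more than 3 counts in every group). The median over named genes was 1.23, so that sign was the usual one among them. Of the 10, 4 passed the test, beside 49.2% of named genes. In eop055 leaves 7 members were called higher and 1, ACS4, lower (-2.12 ± 0.30 on the log2 scale). The sign for ACS4 rests on 3 and 0 counts in apices, pep1-1 first, and ERF022 had 1 and 0 counts there. Without eop055 leaf replicate 3, or with DESeq2, 8 members were called. ARGOS (Aa_G132620h1), a promoter of organ growth that lowers ethylene sensitivity, stood at 8.43, 7.53 and 7.12 CPM in pep1-1 leaves and at 87.4, 147 and 92.7 CPM in eop055 leaves. In apices it stood at 5.25, 6.68 and 6.68 CPM in pep1-1 and 3.38, 4.803 and 4.397 CPM in eop055. The 3 eop055 leaf libraries lay far above every other library, and the apex libraries of eop055 lay slightly below those of pep1-1. ARGOS was thus 14.1-fold higher in eop055 leaves, and its interaction was 4.36 ± 0.32 (log2 ± SE).

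EBF2 (Aa_G70630h1), the F-box protein that targets the ethylene regulator EIN3 for degradation, stood at 157 ± 2.23 CPM in pep1-1 and 554 ± 115 CPM in eop055 leaves (SD, n = 3 each). In apices it stood at 111 ± 10.02 and 93.6 ± 5.74 CPM, and the interaction was 2.06 ± 0.16. Unlike most leaf genes above, EBF2 was highest in eop055 leaf replicate 3, at 464, 514 and 684 CPM over the replicates. The ethylene response factor ERF2 (Aa_G352330h1) stood at 80.8, 126 and 32.7 CPM in eop055 leaves against 8.04, 8.203 and 12.3 CPM in pep1-1 leaves. In apices its order was turned, with 0.313, 0.559 and 0.602 CPM in eop055 against 2.101, 6.96 and 4.83 CPM in pep1-1. The groups did not overlap in either tissue, but the apex effect of -3.13 ± 0.96 did not pass the test and the interaction of 6.19 ± 1.06 did. The related ERF-1 (Aa_G607260h1) had an interaction of 5.37 ± 0.97, from 12.5 ± 1.98 to 93.7 ± 52.96 CPM in leaf. ERF5 had an interaction of 2.22 ± 0.61, which was not called with no filter on low counts or without any 1 of 10 libraries, the 6 apex libraries, the 3 pep1-1 leaf libraries and eop055 leaf replicate 1 (adjusted p 0.00132 to 0.0926 over 21 alternatives with edgeR, DESeq2 and limma). With edgeR's F test the adjusted p was 3.95e-06 for ARGOS, 9.1e-07 for EBF2, 0.0062 for ERF2 and 0.00789 for ERF-1.

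**Figure D3:**
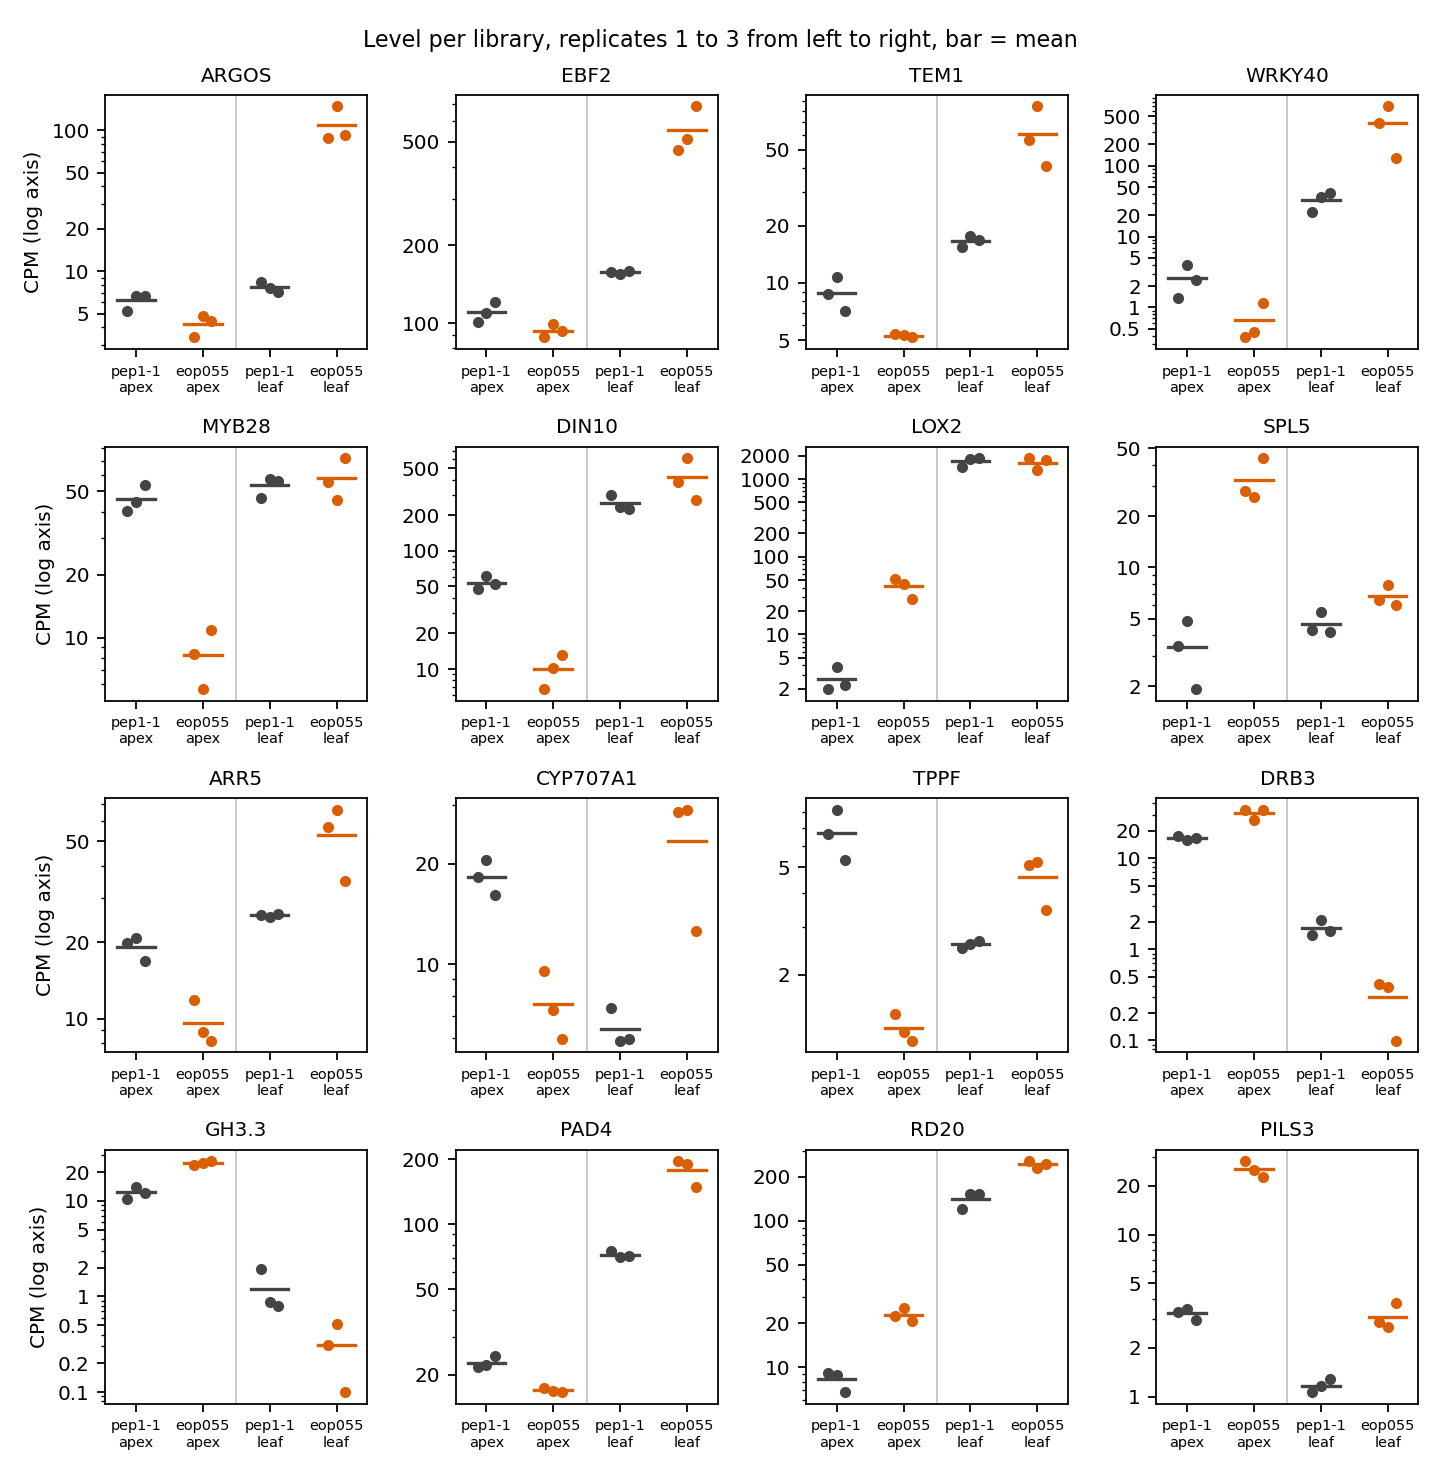
CPM on a log axis (y axis) in each of the 12 libraries for 16 genes, by group (x axis), with pep1-1 in grey and eop055 in orange. ARGOS, EBF2, TEM1 and WRKY40 moved apart in leaf, MYB28, DIN10, LOX2 and SPL5 in apex, the next 6 in opposite directions, and RD20 and PILS3 rose in both tissues by unequal amounts.

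Immune genes rose in leaf. Of the list of salicylic acid and immunity, 16 of 20 tested members were called higher in eop055 leaves, beside 59.9% of named genes. All 20 had an interaction above 0 (median 1.70, beside 1.23 over named genes), and 7 of the 20 passed the test, beside 49.2% of named genes. PR1, PR2 and WRKY48 had at most 2 counts in each apex group, so their interactions do not compare the tissues. Over the 17 members with more than 3 counts in every group the median was 1.72. DESeq2 called 13 of the 20, limma with sample quality weights 5, and edgeR without eop055 leaf replicate 3 called 14. PAD4 (Aa_G311930h1), a lipase-like regulator of salicylic acid signalling, stood at 75.5, 70.4 and 71.2 CPM in pep1-1 and 196, 189.6 and 149 CPM in eop055 leaves. In apices it stood at 22.8 ± 1.39 CPM in pep1-1 and 16.97 ± 0.405 CPM in eop055. The groups did not overlap in either tissue. PAD4 was 2.46-fold higher in eop055 leaves and 1.34-fold lower in eop055 apices, with an interaction of 1.72 ± 0.14.

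The pathogen-induced transcription factors WRKY40 and WRKY18 rose more but spread more. WRKY40 (Aa_G462530h1) stood at 397, 686 and 127 CPM in eop055 against 22.6, 36.1 and 41.3 CPM in pep1-1 leaves, and at 0.656 ± 0.425 against 2.595 ± 1.35 CPM in apices. Its interaction of 5.48 ± 1.42 was not called with limma and sample quality weights, with the replicate block, or without any 1 of the libraries other than eop055 leaf replicates 2 and 3. WRKY18 rose from 51.9 ± 9.87 to 338 ± 214 CPM in leaf, with an interaction of 3.86 ± 0.84. WRKY53, a regulator of leaf senescence, rose from 13.1 ± 3.89 to 33.3 ± 9.08 CPM in leaf (interaction 3.06 ± 0.77, lost with limma and sample quality weights and without replicate 2 of either apex group). The other called members were RBOHD, the NADPH oxidase of the immune burst, BIK1, a kinase of pattern-triggered immunity, and WRKY54, with interactions of 1.68 ± 0.34, 0.99 ± 0.31 and 1.01 ± 0.23. WRKY54, called in apex alone, fell there from 11.01 ± 2.71 to 4.33 ± 0.368 CPM, and with PAD4 it made up the 2 members of the list called lower in eop055 apices. From edgeR, the adjusted p of the interaction was 3.9e-07 for PAD4, 0.035 for WRKY40 (range 5.91e-07 to 0.124 over its 21 alternatives), 0.0176 for WRKY18 and 0.0156 for WRKY53.

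The salicylic acid markers PR1 and PR2 had 0 counts in all 6 apex libraries, so the tissues could not be compared by a ratio. In leaf PR1 stood at 10.9, 22.7 and 23.6 CPM in pep1-1 and 53.8, 33.6 and 117 CPM in eop055. PR2 stood at 12.01, 15.8 and 18.3 and 34.04, 19.02 and 87.6 CPM. Both were highest in eop055 leaf replicate 3, the library that was lowest for 18 of the 20 members of the list.

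Touch and wound genes rose in leaf without an interaction call. All 9 tested members were called higher in eop055 leaves, beside 59.9% of named genes. All 9 had an interaction above 0 (median 2.81, beside 1.23 over named genes). Yet 0 passed the test of the interaction with edgeR, although 7 had an unadjusted p under 0.05. With limma and sample quality weights 0 were called. DESeq2 called 8 of them, the fit of all 18 libraries 3, the replicate block 2, and edgeR without eop055 leaf replicate 3 called 7. TCH4, a touch-induced cell wall enzyme, stood at 801, 1282 and 229 CPM in eop055 leaves, against 107, 114 and 119.9 CPM in pep1-1 leaves, with an interaction of 2.77 ± 0.93. In eop055 apices TCH4 stood at 28.8, 16.7 and 6.63 CPM, also a wide spread. Replicate 2 was the highest and replicate 3 the lowest eop055 leaf library for all 9 members.

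Jasmonate genes mostly had an interaction above 0, in 8 of 9 tested members, with LOX2 alone below 0. Of the 9, 5 had a called interaction above 0 and 1, LOX2, a called interaction below 0 (median of the list 1.47). Among named genes 36.6% were called above 0 and 12.6% below, with a median of 1.23 over all of them. The lipoxygenase genes LOX3 and LOX4 were called higher in eop055 leaves (1.70 ± 0.22 and 1.69 ± 0.41 on the log2 scale). Their interactions of 1.37 ± 0.54 and 4.19 ± 1.56 did not pass the test. LOX2 (Aa_G49590h1), the chloroplast lipoxygenase that starts jasmonate synthesis, stood at 1.98, 3.85 and 2.25 CPM in pep1-1 and 51.6, 44.8 and 28.98 CPM in eop055 apices. In leaves it stood at 1433, 1839 and 1865 and 1842, 1305 and 1759 CPM. LOX2 was therefore 16.02-fold higher in eop055 apices, where groups did not overlap, while the leaf groups overlapped at a far higher level. Its interaction of -4.07 ± 0.40 was among the most negative of the named genes. JAZ1, a repressor of jasmonate responses, moved the other way, from 29.4, 35.5 and 36.7 CPM in pep1-1 leaves to 180.3, 211 and 54.3 CPM in eop055 leaves (interaction 3.12 ± 0.64). JAZ10, of the same family, and OPR3, an enzyme of jasmonate synthesis, were also called higher in leaf alone, with interactions of 1.47 ± 0.38 and 1.42 ± 0.37. JAZ9 was called in apex alone, where it fell (interaction 1.07 ± 0.32). Under each of the other scalings 4 members were called above 0. MYC2, the transcription factor that JAZ proteins repress, stood at 84.4 ± 4.87 and 186 ± 89.6 CPM in leaf and 129 ± 28.4 and 57.9 ± 10.1 CPM in apex, pep1-1 first. Neither effect of MYC2 passed the test alone, but their difference of 2.29 ± 0.50 did, except without eop055 apex replicate 1 or 2. The call of JAZ10 was lost without pep1-1 leaf replicate 2 or 3 or eop055 leaf replicate 1. By the quasi-likelihood test of edgeR, the adjusted p was 0.000285 for LOX2, 0.0135 for JAZ1, 0.0196 for JAZ10 (0.00103 to 0.0567 over 21 alternatives) and 0.0181 for MYC2 (0.000111 to 0.0503 over 21 alternatives).

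Abscisic acid, cold and drought genes gave 3 calls above 0 and 1 below among 12 tested members (median 2.00). Among named genes 36.6% were called above 0 and 12.6% below, 49.2% in either direction, with a median of 1.23 over all of them. DESeq2 called 7 of the 12, and edgeR without eop055 leaf replicate 3 called 6. CYP707A1 (Aa_G357050h1), which breaks down abscisic acid, stood at 7.36, 5.89 and 5.93 CPM in pep1-1 and 28.6, 29.1 and 12.5 CPM in eop055 leaves. In apices it stood at 18.3 ± 2.26 and 7.58 ± 1.801 CPM. The gene was thus 3.64-fold higher in eop055 leaves and 2.41-fold lower in eop055 apices, without overlap in either, and its interaction was 3.13 ± 0.42. ABI2, a phosphatase that damps abscisic acid signalling, rose in leaf from 11.9 ± 0.226 to 25.97 ± 2.12 CPM and stood at 47.8 ± 3.1 and 50.4 ± 1.899 CPM in apices (interaction 1.04 ± 0.13). DREB2A, a drought and heat transcription factor, rose in leaf from 1.69 ± 0.656 to 10.5 ± 4.82 CPM (interaction 3.41 ± 0.77; not called without pep1-1 apex replicate 1). SAG21, a stress and senescence gene, rose in leaf from 108 ± 6.43 to 289 ± 109 CPM and stood at 2.86 ± 0.567 and 0.622 ± 0.477 CPM in apices, with an interaction of 3.58 ± 0.72. With edgeR's F test the adjusted p was 0.000824 for CYP707A1, 4.25e-05 for ABI2, 0.00693 for DREB2A and 0.0124 for SAG21.

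The floral repressors TEM1 and TEM2 rose in leaf. In Arabidopsis these factors repress the florigen gene FT. TEM1 (Aa_G596330h1) stood at 15.5, 17.7 and 16.7 CPM in pep1-1 and 56.1, 84.2 and 41.2 CPM in eop055 leaves, and at 8.75, 10.7 and 7.16 and 5.39, 5.31 and 5.18 CPM in the apices. TEM2 (Aa_G304200h1) stood at 36.5, 43.9 and 40.95 and 179, 349 and 134 CPM in leaves, and at 2.98, 6.13 and 3.299 and 3.19, 3.74 and 2.23 CPM in apices. For both genes the leaf groups did not overlap, and eop055 replicate 2 was the highest. The interactions were 2.60 ± 0.34 and 2.83 ± 0.68, the only 2 tested members of the floral repressor list. From the quasi-likelihood F test of edgeR the adjusted p was 0.000487 for TEM1 and 0.0256 for TEM2. The call of TEM2 was lost with limma and sample quality weights and without pep1-1 apex replicate 2, eop055 apex replicate 1 or 3 or pep1-1 leaf replicate 1 (adjusted p up to 0.0780 over the 21 alternatives).

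Of 7 tested genes of aliphatic glucosinolates, the defence compounds of this plant family made from methionine, 5 were called lower in eop055 apices and 0 lower in eop055 leaves. All 7 had an interaction above 0 (median 1.77, beside 1.23 over named genes), and the 5 called in apex passed the test. Among named genes 36.6% were called for an interaction above 0, and 15.6% were called lower in eop055 apices. MYB28 (Aa_G606850h1), a main activator of the pathway, stood at 40.3, 44.5 and 53.4 CPM in pep1-1 apices and 8.33, 5.697 and 10.8 CPM in eop055 apices. In leaves it stood at 46.6, 57.2 and 56.1 and 55.4, 45.6 and 71.99 CPM. The apex groups were clearly apart and the leaf groups overlapped, and the interaction was 2.59 ± 0.32. The related activator MYB29 fell from 2.15 ± 0.373 to 0.217 ± 0.0881 CPM in apex and stood at 9.12 ± 0.4897 and 7.56 ± 2.57 CPM in leaf (interaction 2.98 ± 0.48).

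The enzymes followed in sign with smaller values. IMD1, of methionine chain elongation, stood at 21.3 ± 4.06 and 9.703 ± 2.84 CPM in apices and 328 ± 14.8 and 441 ± 49.3 CPM in leaves, pep1-1 first, with an interaction of 1.57 ± 0.25. The glucosyltransferase UGT74C1 had an interaction of 1.83 ± 0.37. The sulfotransferase SOT18 fell from 53.6 ± 21.2 to 21.6 ± 1.08 CPM in apices and stood at 51.1 ± 2.86 and 50.8 ± 3.41 CPM in leaves. CYP79F1 and CYP83A1, the cytochrome P450 enzymes of the core pathway, had interactions of 1.12 ± 0.54 and 1.77 ± 0.59, which did not pass the test. Neither was called in apex, and CYP79F1 was called higher in eop055 leaves (0.62 ± 0.11 on the log2 scale). The apex effect of CYP79F1, -0.51 ± 0.52, rests on 15 and 13 counts over the pep1-1 and eop055 groups, which overlapped. Of the 5 tested genes of indole glucosinolates, made from tryptophan, 1 was called: CYP83B1, with an interaction of -0.69 ± 0.20. That call was lost in the fit of 18 libraries and without pep1-1 apex replicate 1 or 2, eop055 apex replicate 2 or 3, pep1-1 leaf replicate 1 or eop055 leaf replicate 1 or 3 (list median -0.05). From edgeR, the adjusted p of the interaction was 0.000621 for MYB28, 0.000414 for MYB29, 0.00205 for IMD1, 0.0118 for UGT74C1 and 0.0308 for CYP83B1 (up to 0.0760 over its 21 alternatives).

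Genes of sugar starvation and bud dormancy gave called interactions above 0. All 6 tested members had an interaction above 0 (median 2.02, beside 1.23 over named genes), and 5 passed the test, beside 36.6% of named genes called above 0. Of the 6, 4 were called lower in eop055 apices, beside 15.6% of named genes. DIN10 (Aa_G68090h1), a dark-inducible gene related to raffinose synthases, stood at 47.4, 61.6 and 52.4 CPM in pep1-1 and 6.77, 10.2 and 13.2 CPM in eop055 apices, against 296, 236 and 228 and 384, 611 and 272 CPM in leaves. Its apex groups were apart and its leaf groups overlapped (interaction 3.15 ± 0.46). The trehalose-6-phosphate phosphatase gene TPPF (Aa_G522440h1) fell from 6.65, 8.15 and 5.31 to 1.44, 1.23 and 1.14 CPM in apices and rose from 2.52, 2.61 and 2.67 to 5.08, 5.23 and 3.49 CPM in leaves. TPPH, of the same family, fell from 4.95 ± 0.315 to 2.26 ± 0.595 CPM in apices and rose from 19.7 ± 0.706 to 36.99 ± 9.44 CPM in leaves. The groups of both genes did not overlap in either tissue, and the interactions were 3.20 ± 0.34 and 2.03 ± 0.28. DRM1, a marker of dormant buds, was called in apex alone, where it fell from 83.9 ± 3.51 to 34.3 ± 3.23 CPM (interaction 1.12 ± 0.17). The dark-inducible SEN1 was called in leaf alone, where it rose from 14.7 ± 2.45 to 30.1 ± 13.1 CPM (interaction 2.02 ± 0.46). Its apex groups, at 6.43 ± 0.868 and 3.21 ± 1.19 CPM, did not overlap either, but the apex effect of -0.99 ± 0.35 did not pass the test. By the quasi-likelihood test of edgeR, the adjusted p was 0.00298 for DIN10, 7.98e-06 for TPPF, 0.000131 for TPPH and 0.0143 for SEN1.

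Of 14 genes in the list of flowering promotion, 6 had a name and were tested. Of these, 3 had a called interaction below 0, beside 12.6% of named genes. All 6 were called higher in eop055 apices, beside 19.2% of named genes, and 0 in leaves. The other members carried no name here, so the 6 do not stand for the whole list. SPL5 (Aa_G1050h1), which acts in the age pathway upstream of meristem identity genes, stood at 3.44, 4.85 and 1.93 CPM in pep1-1 and 28.1, 25.8 and 43.8 CPM in eop055 apices. In leaves it stood at 4.26, 5.501 and 4.15 and 6.43, 7.91 and 5.97 CPM, so the leaf groups also did not overlap, but the leaf effect of 0.53 ± 0.31 did not pass the test. The interaction of SPL5 was -2.73 ± 0.42. SPL4, of the same clade, rose from 0.7904 ± 0.326 to 6.11 ± 2.28 CPM in apices and stood at 18.1 ± 1.83 and 23.1 ± 1.24 CPM in leaves (interaction -2.51 ± 0.36). SPL9 rose from 35.5 ± 2.301 to 70.9 ± 5.99 CPM in apices and stood at 3.08 ± 0.408 and 2.43 ± 0.928 CPM in leaves (interaction -1.30 ± 0.25). FD, the partner of florigen, rose in apices from 8.97 ± 1.24 to 22.7 ± 3.81 CPM, and stood at 1.07 ± 0.184 and 1.42 ± 0.341 CPM in leaves, and its interaction of -0.93 ± 0.37 did not pass the test. With edgeR's F test the adjusted p was 0.000217 for SPL4, 0.001 for SPL5, 0.00192 for SPL9 and 0.0996 for FD.

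Floral meristem and organ genes had few or no counts in leaf, so a ratio between tissues could mostly not be formed. LFY, the regulator of floral meristem identity, had 127 counts over the pep1-1 apices, 785 over the eop055 apices and 0 in all 6 leaf libraries. AP1, which specifies sepals and floral meristems, had 1 and 272 counts in apices and 0 in leaves. The carpel gene CRC had 100 and 384 counts in apices and 0 in leaves. AGL6, a MADS-box gene of floral organs, had 13 and 427 counts in apices and 0 and 1 in leaves, and PI, of petals and stamens, had 1 and 216 counts in apices and 1 and 0 in leaves. None of these 5 had a called interaction with edgeR, although limma and sample quality weights called AGL6, AP1 and PI and DESeq2 called AP1 and PI. AP1, PI and AGL6 had at most 5 counts in any library outside the eop055 apices, so they passed the filter on low counts through that group alone.

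The other tested MADS-box members of the floral organ list, SEP4, SEP1 and AP3, had some counts in leaf and a called interaction. SEP1 and AP3 had at most 5 counts in any library outside the eop055 apices and so passed the filter through that group alone, which leaves their calls without weight as support. SEP4 had 2 and 236 counts in apices, a ratio of 94.7 (95% counting interval 25.9 to 786), and 22 and 42 counts in leaves, a ratio of 2.14 (1.25 to 3.76). SEP1 had 0 and 89 counts in apices and 8 and 10 in leaves. The apex ratio was 23.8 when pep1-1 is set to the floor of 3 counts per group, and its 95% counting interval began at 18.96. AP3, the partner of PI, had 5 and 131 counts in apices, a ratio of 21.0 (8.78 to 65.8), and 6 and 1 in leaves. The intervals and floors cover counting error only. The call of AP3 was lost without pep1-1 leaf replicate 1 or eop055 leaf replicate 2, and that of SEP1 without pep1-1 apex replicate 1 or pep1-1 leaf replicate 1 or 3. SPL8, which acts in anther and flower development, rose in apices from 10.2 ± 1.77 to 58.04 ± 1.73 CPM and stood at 0.163 ± 0.151 and 0.262 ± 0.143 CPM in leaves, with an interaction of -1.88 ± 0.87 that did not pass the test. SEP3 was too low to be tested, with 8, 5 and 27 counts in eop055 apices, 0 in each pep1-1 apex library and 0 to 4 in leaf libraries. Counts of AP1, PI, AP3, SEP1 and SEP4 were highest in eop055 apex replicate 3. AP1 had 81, 49 and 142 counts and SEP1 18, 12 and 59 counts in replicates 1, 2 and 3.

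Of the other named genes called in apex alone, 3 rose there and 1 fell. FLS1 (Aa_G521430h1), the flavonol synthase, stood at 21.8, 17.8 and 20.3 CPM in pep1-1 and 63.3, 60.4 and 44.7 CPM in eop055 apices, and at 7.46, 6.47 and 7.72 and 8.51, 6.76 and 8.66 CPM in leaves (interaction -1.33 ± 0.21). The methyltransferase homolog AT3G53140 (Aa_G211620h1) rose from 0.755 ± 0.337 to 10.8 ± 1.42 CPM in apices and stood at 1.78 ± 0.387 and 2.45 ± 0.665 CPM in leaves (interaction -3.31 ± 0.43). AT3G07570, of the cytochrome b561 family, had 2 and 52 counts in apices, a ratio of 20.9 (95% counting interval 5.49 to 177), and 326 and 248 counts in leaves. AT1G27030, of unknown function, fell from 21.4 ± 5.85 to 3.62 ± 0.606 CPM in apices and stood at 4.45 ± 0.419 and 6.53 ± 0.762 CPM in leaves (interaction 3.11 ± 0.30). From edgeR, the adjusted p of the interaction was 0.000407 for FLS1, 5.41e-05 for AT3G53140 and 2.29e-06 for AT1G27030.

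In 306 genes the mutants differed in opposite directions in the tissues, 202 higher in eop055 leaves and lower in eop055 apices and 104 the reverse. Their median effects were 0.56 in leaf and -0.65 in apex for the first kind, and -0.64 and 0.55 for the second. ARR5 (Aa_G561390h1), a cytokinin response regulator, stood at 25.6, 25.1 and 25.9 CPM in pep1-1 and 57.2, 66.6 and 34.9 CPM in eop055 leaves, and at 19.96, 20.9 and 16.8 and 11.8, 8.88 and 8.19 CPM in apices. It was 2.06-fold higher in eop055 leaves and 1.996-fold lower in eop055 apices (interaction 2.04 ± 0.30). ARL (Aa_G100480h1), a relative of ARGOS that promotes cell expansion, stood at 3.35 ± 0.566 and 21.5 ± 7.79 CPM in leaves and at 9.75, 10.5 and 13.8 and 7.83, 7.09 and 5.36 CPM in apices (interaction 3.41 ± 0.35). Its apex groups were close but did not overlap. The transporter homolog AT3G01350 fell from 1.16 ± 0.158 to 0.158 ± 0.02896 CPM in apices and stood at 8.23, 12.6 and 12.7 and 16.6, 11.7 and 23 CPM in leaves, where the groups overlapped (interaction 3.44 ± 0.56).

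The reverse kind held genes that were low in leaf. GH3.3 (Aa_G288640h1), which conjugates auxin to amino acids, stood at 10.4, 14.1 and 12.2 CPM in pep1-1 and 23.9, 24.97 and 25.9 CPM in eop055 apices. In leaves it stood at 1.94, 0.869 and 0.791 and 0.311, 0.5105 and 0.0996 CPM, so the leaf values rest on 37 and 8 counts over the groups. The double-stranded RNA binding protein gene DRB3 (Aa_G247950h1) stood at 17.5, 15.9 and 16.7 and 33.5, 26.5 and 34.04 CPM in apices and at 1.45, 2.12 and 1.58 and 0.415, 0.383 and 0.0996 CPM in leaves. The groups of both genes were apart in each tissue, and the interactions were -3.04 ± 0.53 and -3.43 ± 0.42. The wax ester synthase homolog AT5G53390 and the permease homolog AT2G33260 had the same order, with interactions of -3.34 ± 0.43 and -3.27 ± 0.65.

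The acyltransferase homolog CER26-LIKE and the ligase homolog AT1G21540 were instead higher in leaf than in apex and fell there, CER26-LIKE from 71.9 ± 6.39 to 36.3 ± 3.296 CPM and AT1G21540 from 13.7 ± 1.599 to 9.62 ± 1.204 CPM. In apices CER26-LIKE rose from 0.434 ± 0.103 to 1.68 ± 0.366 CPM and AT1G21540 from 0.826 ± 0.0807 to 5.73 ± 0.775 CPM, with interactions of -2.96 ± 0.30 and -3.31 ± 0.28. AT5G51470, a GH3 family gene, had 305 and 123 counts in apices, a ratio of 0.324 (95% counting interval 0.260 to 0.400), and 0 and 5 counts in leaves, where a direction rests on those 5 counts. By the quasi-likelihood test of edgeR, the adjusted p was 0.000981 for ARR5, 2.21e-05 for ARL, 0.000499 for AT3G01350, 0.000789 for GH3.3, 3.28e-05 for DRB3, 5.88e-05 for AT5G53390, 3.95e-06 for CER26-LIKE and 6.01e-07 for AT1G21540.

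In 45 genes both tissues moved in 1 direction by unequal amounts. RD20 (Aa_G208680h1), a drought-induced lipid droplet protein, stood at 9.22, 8.88 and 6.76 CPM in pep1-1 and 22.4, 25.2 and 20.8 CPM in eop055 apices and at 120.0, 153 and 152 and 255, 229.6 and 244 CPM in leaves. The rise was larger in apex, 1.45 ± 0.13 against 0.78 ± 0.10 on the log2 scale (interaction -0.68 ± 0.16). The auxin carrier homolog PILS3 (Aa_G111050h1) stood at 3.33, 3.48 and 2.98 and 28.3, 24.9 and 22.5 CPM in apices and at 1.07, 1.16 and 1.29 and 2.91, 2.68 and 3.78 CPM in leaves (interaction -1.53 ± 0.31). PILS5, of the same family, was called in leaf alone, where it rose (interaction 1.55 ± 0.23). Its apex effect of -0.42 ± 0.17 did not pass the test. The auxin list thus had 1 call above 0 and 2 below among 3 tested members. The asparaginase ASPGB1 was 11.4-fold higher in eop055 apices and 2.52-fold higher in eop055 leaves (interaction -2.17 ± 0.40). ATBBE16, AT5G02230 and AT3G28580 had interactions of -1.92 ± 0.32, -1.68 ± 0.37 and -1.66 ± 0.32, each with the larger rise in apex. The amino acid transaminase BCAT-2 rose from 4.65 ± 1.05 to 13.5 ± 2.28 CPM in apices. In leaves BCAT-2 had 1 and 35 counts, a ratio of 39.2 (95% counting interval 6.58 to 1591), and its call was lost without pep1-1 leaf replicate 1. With edgeR's F test the adjusted p was 0.00899 for RD20, 0.00286 for PILS3, 0.000242 for PILS5, 0.00143 for ASPGB1 and 0.000642 for ATBBE16.

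Among the largest interactions above 0 were also genes near the counting limit in apex. UMAMIT36, of a family of amino acid transporters, had 8 and 141 counts in leaves, a ratio of 19.7 (95% counting interval 9.74 to 46.6), and 6 and 2 counts in apices. It had at most 5 counts in any library outside the eop055 leaves, so it passed the filter through that group alone and its call is no support. The cytochrome P450 gene CYP72A8 had 28 and 463 counts in leaves, a ratio of 18.5 (12.6 to 28.2), and 7 and 3 in apices. With 5, 12 and 11 counts in the pep1-1 leaf libraries, CYP72A8 too passed the filter through the eop055 leaves alone. Its call is therefore no support. SRO5, a stress gene related to RCD1, had 38 and 220 counts in leaves and 8 and 1 in apices, and AT5G10040 had 122 and 308 in leaves and 9 and 1 in apices. The calls of UMAMIT36 and CYP72A8 were lost without pep1-1 apex replicate 1, which held 5 of the 6 and 6 of the 7 pep1-1 apex counts. The call of SRO5 was lost with the replicate block and without any 1 of 8 libraries, and that of AT5G10040 without any 1 of 4 apex libraries. AT4G02170 rose in leaf from 0.387, 0.483 and 0.593 to 5.81, 7.66 and 0.896 CPM and stood at 16.9, 9.98 and 15.05 and 7.14, 6.53 and 3.19 CPM in apices (interaction 4.55 ± 1.00, not called without pep1-1 leaf replicate 1).

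**Figure D4:**
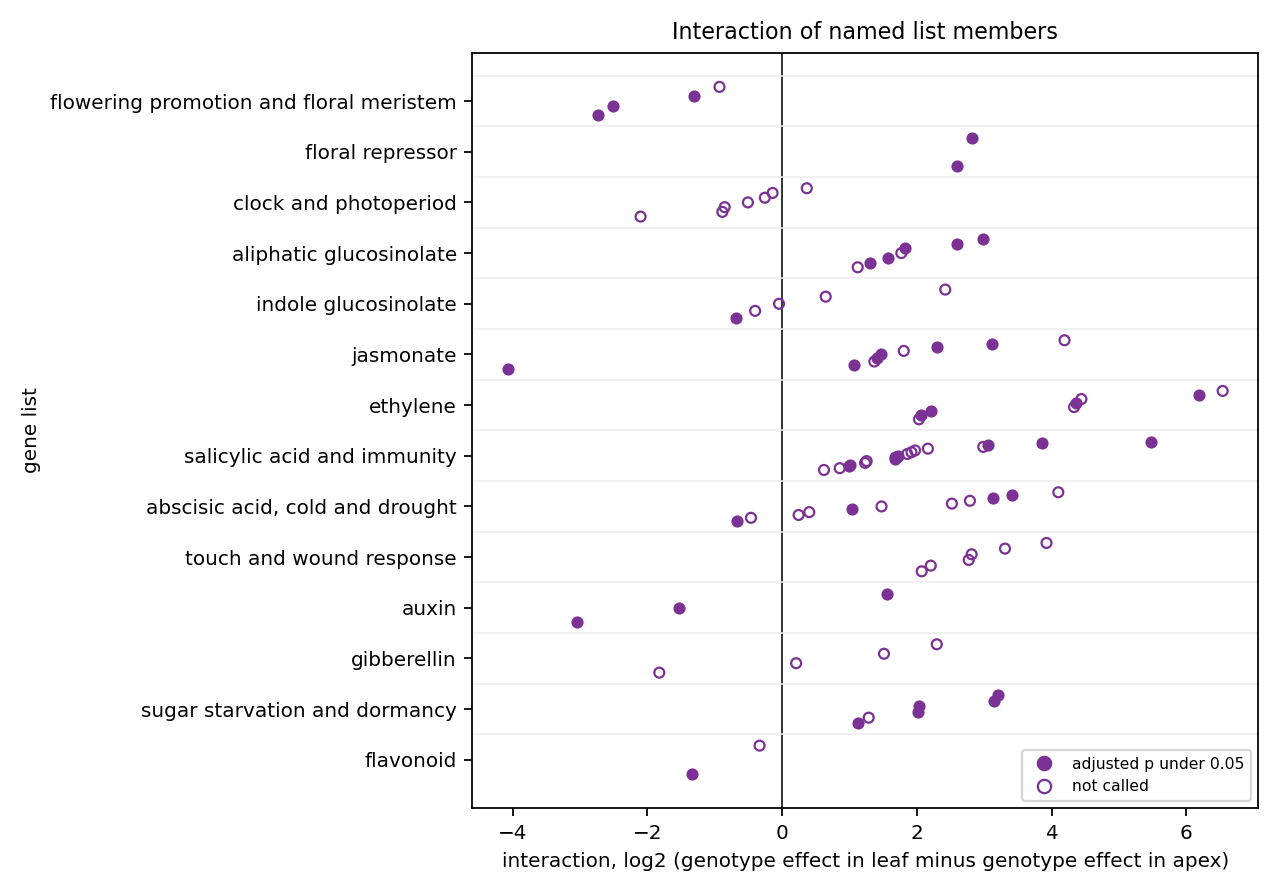
Interaction on the log2 scale (x axis) of 91 named list members with more than 3 counts in each group, by list (y axis, 14 lists with at least 2 such members), filled where the adjusted p was under 0.05. The aliphatic glucosinolate, ethylene, immune, touch and sugar lists lie wholly above 0, and the flowering list lies below 0. The median over all 1370 named genes tested was 1.23.

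Clock genes gave no called interaction although several changed in both tissues. Among 8 tested members 0 were called by edgeR, DESeq2 or limma, and 3 had an unadjusted p under 0.05 with edgeR (median -0.68). LHY, a morning clock factor, rose from 87.4 ± 5.69 to 150.0 ± 3.23 CPM in leaves and from 17.1 ± 1.23 to 22.8 ± 3.11 CPM in apices, with an interaction of 0.37 ± 0.13. Its partner CCA1 rose from 39.5 ± 2.78 to 64.2 ± 5.26 CPM and from 1.99 ± 0.342 to 3.82 ± 0.644 CPM, with an interaction of -0.26 ± 0.21. The evening repressor PRR5 fell in both tissues (interaction -0.51 ± 0.23). The same held for RD29A, a cold and drought gene, and GA3OX1, which makes active gibberellin, which fell in both, and for RAB18, HAI1, HSP90.1 and MYB111, which rose in both. Their interactions were -0.46 ± 0.20, 0.21 ± 0.29, 0.40 ± 0.54, 0.24 ± 0.56, -0.12 ± 0.35 and -0.34 ± 0.66, in that order. An interaction that missed the threshold does not show that the effects were equal.

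The remaining lists were short or gave few calls. Of the cytokinin list ARR5 was called and LOG5, a cytokinin-activating enzyme, had 79 and 721 counts in apices and 0 in leaves. Of 4 gibberellin genes and 1 heat shock gene 0 were called by edgeR or limma, 0 of them at an unadjusted p under 0.05 with edgeR. DESeq2 called 1 of the gibberellin genes, and edgeR without eop055 leaf replicate 3 called 3. In the senescence list SAG21 was called and NAP, a senescence factor, had 0 counts in apices. Of the 2 meristem genes 0 were called by edgeR and 1 had an unadjusted p under 0.05. ZPR2 had 2 and 1 counts in leaves, and FAF2 had an interaction of -1.83 ± 0.85. ERF1, of the ethylene list, was too low to be tested, with 4, 2 and 2 counts in pep1-1 and 15, 17 and 5 counts in eop055 leaves and 0 in apices.

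The apices at 3 weeks gave a separate measure of the apex effect, in libraries that the interaction had not used. In a fit of those 6 libraries 1712 of 19870 genes were called (8.62%), 5.02% higher and 3.6% lower in eop055. Of the 460 genes tested that had been called lower in apex alone at 5 weeks, 11 (2.39%) were called lower at 3 weeks and 88 (19.1%) higher. Of the 201 genes of opposite directions that fell in apex at 5 weeks, 6 (2.99%) were called lower and 46 (22.9%) higher at 3 weeks. Of the 283 genes that had been called higher in apex alone, 29 (10.2%) were called higher and 28 (9.89%) lower. When all 18 libraries were fitted together, 783 of 21275 genes (3.68%) were called at 3 weeks, 2.58% higher and 1.1% lower in eop055. In that fit, of 468 genes called lower in apex alone at 5 weeks, 13 (2.78%) were called lower and 62 (13.2%) higher. This alternative was chosen after seeing the data. Single genes followed both courses. TPPF was also lower in eop055 apices at 3 weeks (-1.18 ± 0.26 on the log2 scale) and SPL5 and RD20 also higher (1.57 ± 0.29 and 0.65 ± 0.13), while IMD1 was higher at 3 weeks (1.51 ± 0.19) and lower at 5 weeks. LFY was lower in eop055 apices at 3 weeks (-0.74 ± 0.21) and higher at 5 weeks. The flowering and floral genes SPL9, SPL8, FD and CRC were not called at 3 weeks (0.16 ± 0.11, -0.01 ± 0.09, 0.47 ± 0.16 and -0.12 ± 0.19). ARR5 was 0.45 ± 0.09 and GH3.3 -0.56 ± 0.12 at 3 weeks, both opposite in sign to 5 weeks, and MYB28, at 0.35 ± 0.12, did not pass the test. From edgeR, the adjusted p at 3 weeks was 0.0141 for TPPF, 0.00181 for SPL5, 0.00361 for RD20, 0.00989 for IMD1, 0.0267 for LFY, 0.00288 for ARR5, 0.0102 for GH3.3 and 0.0792 for MYB28.

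Genes without an Arabidopsis name made up 2607 of the 3281 calls. Both genes given here were chosen after their values were seen. Among those with at least 5 CPM in a group, Aa_G442220h1 had the largest interaction above 0. It stood at 0.581, 1.54 and 1.68 CPM in pep1-1 and 8.301, 12.6 and 3.88 CPM in eop055 leaves, and at 0.467, 0.549 and 0.483 CPM in pep1-1 apices with 0 counts in eop055 apices. Aa_G442220h1 passed the filter on low counts through the eop055 leaves alone, so its call is no support. At the other end Aa_G137740h1 stood at 0.194, 0.193 and 0.8902 CPM in pep1-1 leaves and at 0 in eop055 leaves, against 9.57, 7.87 and 7.56 and 8.46, 9.05 and 9.46 CPM in pep1-1 and eop055 apices.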

How the data were processed

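Poly(A) RNA was sequenced as 100-base single reads on a HiSeq2500 from directional libraries made with 1 µg of RNA, per the labels' protocols. The authors deposited raw counts of reads per gene, and STAR, HTSeq 0.5.4p1, DESeq and DESeq2 are named in the submitters' processing notes, with no build given in the sources used here. The 5 summary rows of the count table were left out. They held 7.76% to 16.6% of reads without a gene and 2.01% to 3.13% ambiguous reads. Arabidopsis names were read from tables of changed genes deposited by the authors, which served only as a dictionary: of 1816 identifiers, 1401 had a locus and 1399 matched 1 row. Values in those tables, fold changes and p-values deposited by the authors, were not used.

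Genes passing edgeR's default filter were scaled by TMM and tested with edgeR 4.0.16 (quasi-likelihood, robust) in R 4.3.3 on the 12 libraries, at a Benjamini-Hochberg adjusted p under 0.05. TMM factors were 1.34 to 1.39 in apices and 0.687 to 0.771 in leaves. Counting ratios have exact 95% Clopper-Pearson intervals with a floor of 3 counts over a group. Gene models that share reads could not be separated. Alternatives used other scalings and filters, DESeq2 1.42.0, limma 3.58.1 with sample quality weights, all 18 libraries, a replicate block, stricter thresholds and each library left out. The scripts were tested on simulated data. Figures were drawn with matplotlib 3.10.9. Genes were named by rule: the 10 largest interactions in each direction whose highest group mean reached 5 CPM, the 5 largest per pattern, every measured flowering and floral gene, and the 4 largest calls of any other list, with members that completed a count. The members and lists were chosen with earlier results of these data known.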

Additional observations from a re-analysis of the deposited data

Results flagged for a closer look

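The 3281 genes whose genotype effect differed between leaf and apex are listed for a closer look because the difference itself was tested, with edgeR's quasi-likelihood test. Of the genes named by rule, 61 passed, and their interactions follow as log2 values, leaf minus apex.

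Among genes called in leaf alone, the interaction was ERF2 6.19, UMAMIT36 5.92, CYP72A8 5.59, SRO5 5.49, WRKY40 5.48, ERF-1 5.37, AT4G02170 4.55, AT5G10040 4.51, ARGOS 4.36, WRKY18 3.86, SAG21 3.58, DREB2A 3.41, JAZ1 3.12, WRKY53 3.06, TEM2 2.83, TEM1 2.60, ERF5 2.22, EBF2 2.06, SEN1 2.02, PILS5 1.55, JAZ10 1.47 and ABI2 1.04. Fitted values of genes with a group at 3 counts or fewer depend on the model and are given with their counts in the report. UMAMIT36 and CYP72A8, and below AP3 and SEP1, passed the filter on low counts through their highest group alone.

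Among genes called in apex alone, those that fell in eop055 apices had DIN10 3.15, AT1G27030 3.11, MYB29 2.98, MYB28 2.59, UGT74C1 1.83 and IMD1 1.57. Those that rose there had SPL9 -1.30, FLS1 -1.33, SPL4 -2.51, SPL5 -2.73, AT3G53140 -3.31, LOX2 -4.07, AT3G07570 -4.36, SEP4 -5.23, AP3 -6.44 and SEP1 -7.01.

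Where the tissues moved in opposite directions, the interaction was AT5G51470 5.85, AT3G01350 3.44, ARL 3.41, TPPF 3.20, CYP707A1 3.13, ARR5 2.04, TPPH 2.03 and PAD4 1.72 for genes higher in eop055 leaves. It was CER26-LIKE -2.96, GH3.3 -3.04, AT2G33260 -3.27, AT1G21540 -3.31, AT5G53390 -3.34 and DRB3 -3.43 for genes lower in eop055 leaves.

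Where both tissues moved in 1 direction, the interaction was BCAT-2 3.37 for the gene with the larger change in leaf. It was RD20 -0.68, PILS3 -1.53, AT3G28580 -1.66, AT5G02230 -1.68, ATBBE16 -1.92 and ASPGB1 -2.17 for those with the larger change in apex. Called in neither tissue alone were MYC2 2.29 and CYP83B1 -0.69.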

How the results depend on the processing

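Of the 61 named genes called, 45 kept their call in each of their 20 or 21 refits at an adjusted p under 0.05, and none of the 68 named genes changed sign in those refits. Single genes were not rechecked at the stricter thresholds, which bear on the totals. Scaling by the upper quartile gave 1494 interactions above 0 and 2466 below. DESeq2 called 74 list members, and limma with sample quality weights gave 460 genes in opposite directions and 71 in 1 direction. At an adjusted p under 0.01 the interaction was called for 1421 genes (911 above 0, 510 below), the leaf effect for 2616 and the apex effect for 1295. The patterns then held 750 genes in leaf alone, 382 in apex alone, 102 opposite, 17 in 1 direction and 170 in neither, with 27 list members. Requiring 2-fold of the interaction and of each tissue effect left 1314 interactions (892 and 422), 1313 leaf and 675 apex effects. Those patterns then held 531, 287, 15, 5 and 476 genes, with tissue effects under 2-fold counted as not called.

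Leaving out 1 library gave 2386 to 4289 interactions, 1346 to 2635 above 0 and 925 to 1654 below. It gave 3310 to 5228 leaf effects, 1543 to 3066 apex effects, 1204 to 2490 genes in leaf alone, 500 to 851 in apex alone, 187 to 489 opposite, 28 to 94 in 1 direction, 239 to 365 in neither and 38 to 70 list members. The replicate block gave 3195 interactions. Same-numbered libraries correlated at -0.03 to 0.07. Values this small do not settle whether the replicate numbers paired the samples, which the labels do not say. At 3 weeks 1712 genes were called in a fit of 6 libraries and 783 in a fit of 18, chosen after seeing the data. The cause of these shifts was not tested. Of the calls that rest on few counts in 1 tissue, those of UMAMIT36, CYP72A8, SRO5, AT5G10040, BCAT-2, AP3 and SEP1 were lost without at least 1 library, while those of SEP4, AT3G07570 and AT5G51470 were kept.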
